A study of Arabidopsis thaliana with 14 samples.

Results

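YODA (YDA) is a kinase at the top of a mitogen-activated protein kinase cascade in Arabidopsis thaliana. The cascade restrains entry into the stomatal lineage, the cells of the leaf epidermis that divide to make stomata, and it also acts in the early embryo. Loss of YDA function is known for clustered stomata and for small, compact plants. Here the transcripts of seedlings with loss of YDA function were compared with those of a control line, to find which functions changed across all the genes measured.

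The comparison took 7 of the 14 arrays of the series by their titles, 4 of yda seedlings and 3 of control seedlings. All were whole seedlings at 7 dpg, grown without a treatment that the labels name. The yda arrays are called biological replicates, and their labels give neither an allele nor an ecotype, so the effects of the mutation and of any difference in background cannot be told apart. The control was line CS9159 in the C24 ecotype, whose arrays carry only a number. The other 7 arrays also entered the filter and the estimate of spread behind every test. They were 4 of NdelYDA seedlings in the Ler ecotype, which carry YDA with an N-terminal deletion and lack stomata, and 3 of Ler control seedlings, which served as an alternative control too. The p-values therefore measure the spread between samples within these 4 groups, which may be technical. With the 7 arrays of yda and C24 alone, 6000 probe sets were called in place of 7470. In RNA of whole seedlings, fewer cells of a type and less RNA per cell cannot be told apart.

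The values were probe set intensities, scaled alike on every array, and a change is a difference on log2(intensity + 16), which understates the fold of genes with low signal. C24 replicate 1 stood apart from the other C24 arrays. On it 231 tested probe sets lay at least 2-fold beyond both others of its group, against 37 and 87 for C24 replicates 2 and 3. The yda arrays gave 18 to 59, a stricter count, as their group is larger and each had to lie beyond all its others. The GAPDH 3′ to 5′ ratio, a sign of RNA quality, was 0.789, 0.921, 0.803 and 0.945 in yda replicates 1 to 4 and 1.46, 1.12 and 1.02 in C24 replicates 1 to 3. Every C24 array lay above every yda array, with C24 replicate 1 the highest, and the part of this difference in the results was not tested. The counts over all genes and over the main lists are given with and without C24 replicate 1. YDA itself (AT1G63700) has no probe set of its own in the probe table used and is not analysed here. Of 121 genes that differed at least 4-fold between the Ler and C24 controls, 115 were nearer to C24 than to Ler in yda, and the 6 others included CHX20, AT2G43590 and AT4G12490.

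Across 9421 genes tested, each read by its brightest probe set, 1754 (18.6%) were higher in yda and 2216 (23.5%) lower at an adjusted p under 0.05. Many of these changes were small, with a median size of 0.51 on the log2 scale among the 3970 called genes and 49.1% of them under 0.5. A fold of at least 2 was reached among the rises by 2.58% of all genes and among the falls by 3.42% (322 genes). Over all 17210 probe sets tested, 43.4% were called, and 6.44% at that fold. The median over all genes was -0.03. Bringing all arrays to a common median moved it to 0.04 and gave 2142 higher (22.7%) and 1816 lower (19.3%), so the balance of rises and falls depends on the scaling. Without C24 replicate 1, 1638 were higher (17.4%) and 2067 lower (21.9%). Of the 3970 called genes, 3323 (83.7%) were called in the same direction without it, and 0 in the opposite one. The shares of 18.6% higher and 23.5% lower are the background for the list counts below.

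**Figure D1:**
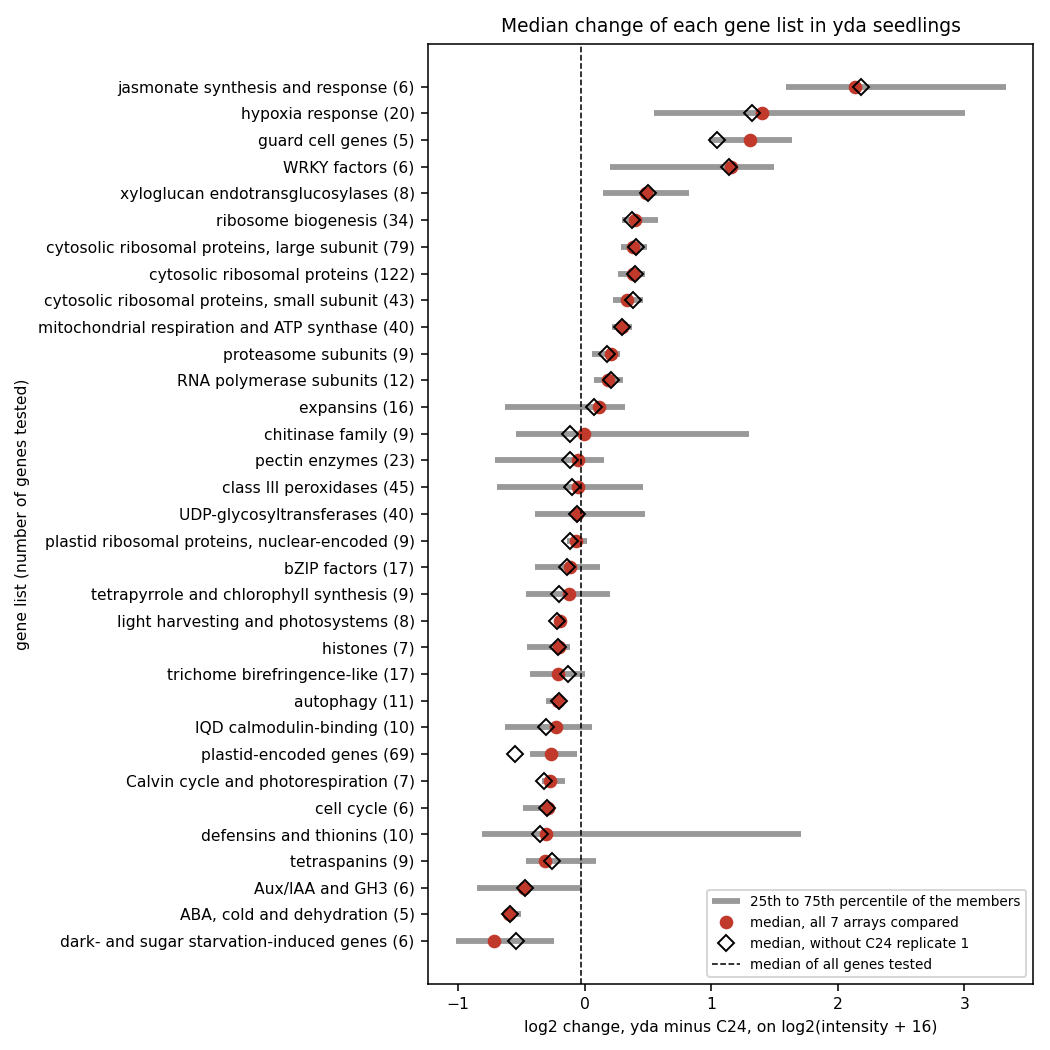
Median log2 change (yda minus C24) of each gene list described in the text (red points), with the 25th to 75th percentile of its members (grey bars) and the median without C24 replicate 1 (open diamonds). Jasmonate, hypoxia, guard cell and WRKY lists lie above 1, and cytosolic ribosomal, ribosome biogenesis and respiratory lists between 0.30 and 0.40. Leaving out the array moves the plastid-encoded genes furthest, from -0.27 to -0.55.

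Genes of the protein synthesis machinery rose together by small amounts. Of 122 tested genes for proteins of the cytosolic ribosome, 105 rose, and 0 fell by limma, at an unadjusted p under 0.05 as well. Their median change was 0.38, a fold of 1.3, against -0.03 for all genes, and 121 of 122 had a positive change. All 4 yda arrays lay above all 3 C24 arrays for 101 of them, where this held for 18.0% of all genes. Both subunits took part, with 37 of 43 small subunit genes higher (median 0.34) and 68 of 79 large subunit genes higher (median 0.38). Without C24 replicate 1, 105 of 122 were called higher with a median of 0.40, 37 of them in the small subunit and 68 in the large.

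The level of the ribosomal protein genes varied more among the C24 arrays than among the yda arrays. Their median log2 level by array was 11.98, 11.88, 12.02 and 11.94 in yda and 11.7, 11.54 and 11.47 in C24, so the lowest yda array lay above the highest C24 array, which was replicate 1. AT5G39850 changed most, at 1289.6, 1165, 1263 and 1268 in yda replicates 1 to 4 and 573, 542 and 485 in C24 replicates 1 to 3 (log2 change 1.2, SE 0.10, adjusted p = 8.2e-08). Every yda array was at more than 2-fold the highest C24 array, and the groups did not overlap. AT4G25740, of the small subunit, was at 3716, 3368, 3426 and 3604 in yda and 2192, 2320.1 and 2189 in C24 (log2 change 0.66, SE 0.06, adjusted p = 1.5e-07), and AT5G22440, of the large subunit, at 2426, 2333, 2509 and 2502 in yda and 1609, 1617 and 1625 in C24 (log2 change 0.59, SE 0.06, adjusted p = 4.4e-07). Neither overlapped between groups. Among further members, AT4G10450 changed by 0.75 (SE 0.08), AT5G02610 by 0.66 (SE 0.06), AT5G52650 by 0.46 (SE 0.05) and AT3G04840 by 0.45 (SE 0.05). The smallest called rise, that of AT2G17360, was 0.18 (SE 0.06), so members of this list moved by unequal amounts. Many of these genes have close copies, and the signal of a probe set may be shared between them.

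Genes that build ribosomes rose as well. This list holds factors that process ribosomal RNA and assemble the subunits in the nucleolus. Of 34 tested members, 30 were higher and 0 lower (0 lower at an unadjusted p under 0.05), with a median change of 0.40. Without C24 replicate 1, 26 were higher and the median was 0.38. AT1G52930 was at 1144, 973, 1054 and 1189 in yda replicates 1 to 4 and 659.9, 606 and 559 in C24 replicates 1 to 3 (log2 change 0.82, SE 0.08, adjusted p = 4.4e-07). AT4G28450 was at 442, 391, 503 and 433 in yda and 240.8, 221 and 258 in C24 (log2 change 0.84, SE 0.10, adjusted p = 4e-06), and AT2G44860 at 1563, 1480.2, 1694 and 1436 in yda and 941, 992 and 909 in C24 (log2 change 0.69, SE 0.08, adjusted p = 2.5e-06). In all of them the lowest yda array exceeded the highest C24 array. AT1G69070 changed by 0.59 (SE 0.08). AT3G22660 had the largest called change, 0.87 (SE 0.15), and AT1G25260 the smallest, 0.18 (SE 0.06).

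Subunits of the nuclear RNA polymerases changed less, with 41.7% higher beside 18.6% of all genes. Of 12 tested, 5 rose and 0 fell (0 at an unadjusted p under 0.05), and all 12 had a positive change (median 0.18, or 4 higher, 0 lower and median 0.21 without C24 replicate 1). NRPA2, the second-largest subunit of polymerase I, which transcribes ribosomal RNA, was at 768, 703, 757 and 749.6 in yda and 679, 533 and 574 in C24 (log2 change 0.32, SE 0.08, adjusted p = 0.0041). NRPC2, the matching subunit of polymerase III, changed by 0.35 (SE 0.10), and the small subunits NRPB12, NRPB9B and NRPB6B by 0.31, 0.30 and 0.25. C24 replicate 1 was the highest C24 array for NRPA2, NRPB12 and NRPB9B, and it overlapped the yda arrays for NRPB12 and NRPB9B. Against Ler, NRPB9B and NRPB6B changed sign, to -0.13 and -0.37. NRPB6B lost its call without C24 replicate 1 (adjusted p = 0.062).

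**Figure D2:**
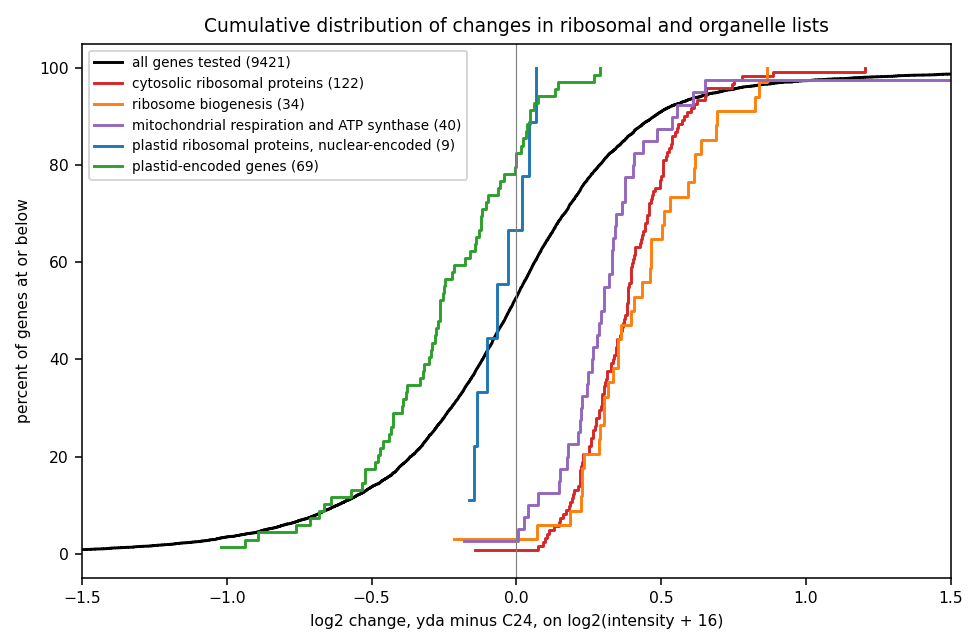
Cumulative share of genes (percent, vertical axis) at or below each log2 change (yda minus C24, horizontal axis) in ribosomal and organelle lists and in all 9421 genes tested. The curves of cytosolic ribosomal proteins, ribosome biogenesis and mitochondrial respiration lie to the right of all genes, with medians of 0.38, 0.40 and 0.30. The axis ends at 1.5, so AT5G25450, a member of the respiratory list at 1.65, lies outside it.

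Nuclear genes of mitochondrial respiration rose with them. Of 40 tested genes for the respiratory chain and ATP synthase, 29 were higher and 0 lower (0 at an unadjusted p under 0.05). The median change was 0.30, with 27 higher and the same median of 0.30 without C24 replicate 1. AT5G25450 stood out at 2599.5, 2198, 2421 and 2407 in yda replicates 1 to 4 and 865, 564 and 884 in C24 replicates 1 to 3 (log2 change 1.65, SE 0.13, adjusted p = 6.7e-08). Its yda arrays were at more than 2-fold the highest C24 array. CYTC-2, a cytochrome c, the mobile electron carrier between complexes III and IV, was at 1616, 1430.4, 1688 and 1387 in yda and 1002, 994 and 902 in C24 (log2 change 0.65, SE 0.08, adjusted p = 1.2e-05). AT4G26210 changed by 0.61 (SE 0.08) and AT4G37830 by 0.44 (SE 0.05), neither with overlap between groups. MPPBETA, a processing peptidase that in plants is part of complex III, was the smallest called change, 0.21 (SE 0.07), and missed the threshold without C24 replicate 1 (adjusted p = 0.052).

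Of 9 tested subunits of the proteasome, the protease that degrades ubiquitin-tagged proteins, 5 rose by small amounts and 0 fell (0 at an unadjusted p under 0.05), with a median 0.21, or 5 higher, 0 lower and median 0.18 without C24 replicate 1. AT5G23540 was at 1704, 1569, 1713 and 1578 in yda and 1269.6, 1329 and 1241 in C24 (log2 change 0.35, SE 0.06, adjusted p = 0.00028) without overlap between groups. RPN12a, of the regulatory particle, changed by 0.21 (SE 0.06) and AT1G79210 by 0.29 (SE 0.06). The share higher, 55.6%, stands beside 18.6% of all genes. Against Ler in place of C24, the median of this list was -0.00136.

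The plastid did not share the rise of the cytosolic ribosome. Of 9 tested nuclear genes for plastid ribosomal proteins, 0 rose (0 at an unadjusted p under 0.05) and 1, AT4G01310, fell, with a change of -0.15 (SE 0.05). Their median was -0.07, and without C24 replicate 1 it was -0.12 with 2 lower. Genes carried by the plastid genome itself gave 0 higher and 12 lower of 69, with a median of -0.27 (0 higher at an unadjusted p under 0.05). The share lower, 17.4%, was under the 23.5% of all genes. The count depended on C24 replicate 1. Without it 27 of 69 were lower and the median was -0.55.

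The plastid-encoded genes varied widely between replicate arrays. Their median log2 level was 10.84, 10.8, 10.93 and 10.08 in yda and 9.84, 11.55 and 11.56 in C24. C24 replicate 1 lay lowest of all 7 and yda replicate 4 next, while C24 replicates 2 and 3 were the highest. Across the members, C24 replicate 1 was -0.87 from the mean of the other C24 arrays at the median. The part of these arrays' RNA quality in this spread was not tested. Without both C24 replicate 1 and yda replicate 4, the median change was -0.38. It was -0.015 without C24 replicate 2, -0.0495 without C24 replicate 3 and -0.095 without yda replicate 4. Some members were steadier. rpoA, the alpha subunit of the plastid RNA polymerase, was at 1262, 997, 1178 and 1420.5 in yda and 1717, 1802 and 1738 in C24 (log2 change -0.53, SE 0.10, adjusted p = 0.00048). The ribosomal protein gene rps3 was at 4828, 4904, 5028 and 5195 in yda and 5917, 6178 and 5894 in C24 (log2 change -0.26, SE 0.06, adjusted p = 0.0034). The groups did not overlap for either, and C24 replicate 1 lay with its group. psbF, of cytochrome b559 in photosystem II, changed by -0.39 (SE 0.10), rpl33, another ribosomal protein gene, by -0.32 (SE 0.07), and petG, of the cytochrome b6f complex, by -0.68 (SE 0.19), the largest called fall. The smallest, in psbJ, another photosystem II gene, was -0.25 (SE 0.09).

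**Figure D3:**
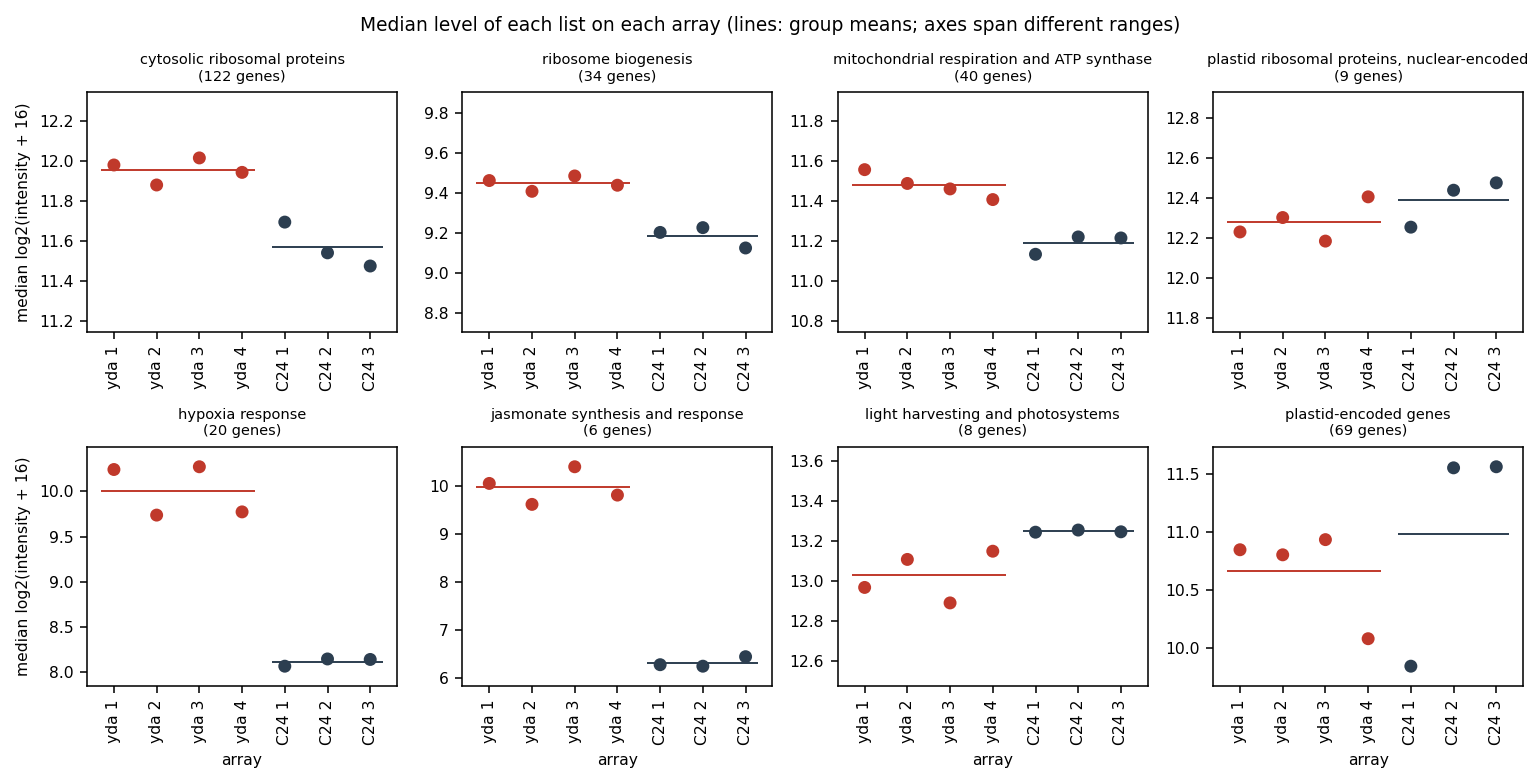
Median log2(intensity + 16) of 8 gene lists (vertical axis, range set for each panel) on each of the 4 yda arrays (red) and 3 C24 arrays (dark), with lines at the group means. The medians of the groups separate for the cytosolic ribosomal, respiratory, hypoxia, jasmonate and light harvesting lists and overlap for the nuclear-encoded plastid ribosomal proteins. Gene by gene, only 2 of 8 light harvesting genes had every yda array below every C24 array. C24 replicate 1 and yda replicate 4 are the lowest for plastid-encoded genes, at 9.84 and 10.08.

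Nuclear photosynthesis genes fell by little. Of 8 tested genes of light harvesting and the photosystems, 5 fell and 0 rose (0 at an unadjusted p under 0.05), with a median -0.19, or 0 higher, 4 lower and median -0.22 without C24 replicate 1. Over all genes 23.5% were lower. All 4 yda arrays lay below all 3 C24 arrays for 2 of the 8, where this held for 22.7% of all genes. With all arrays at a common median, 2 fell and 1 rose. LHCB4.2, an antenna protein of photosystem II, fell furthest, at 3040.0, 3481, 2884 and 3084 in yda replicates 1 to 4 and 6709, 5737 and 5762 in C24 replicates 1 to 3 (log2 change -0.95, SE 0.07, adjusted p = 5.4e-08). All its yda arrays lay far below the C24 arrays. PSAN, a subunit of photosystem I, changed by -0.27 (SE 0.06), and LHCB4.1, a close relative of LHCB4.2, by -0.18 (SE 0.06).

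The Calvin cycle and photorespiration list had 5 of 7 lower and 0 higher (0 at an unadjusted p under 0.05), with a median -0.27, or 0 higher, 5 lower and median -0.32 without C24 replicate 1. That share lower, 71.4%, stands beside 23.5% of all genes. HPR, the hydroxypyruvate reductase of photorespiration, was at 7064, 7875, 7007 and 8811 in yda and 9757, 10378 and 10105 in C24 (log2 change -0.40, SE 0.07, adjusted p = 0.0004). PRK, which makes the carbon dioxide acceptor of the cycle, changed by -0.27 (SE 0.06) and AT1G80380 by -0.67 (SE 0.07). Of 9 tested chlorophyll synthesis genes, 3 were higher and 3 lower, or 2 and 5 without C24 replicate 1. These shares of 33.3% each way stand beside 18.6% higher and 23.5% lower over all genes. The median of the chlorophyll list was -0.13, or -0.20 without that array. CHLM, the magnesium protoporphyrin methyltransferase, was at 2911, 3096, 2837 and 3057 in yda and 4399.6, 4283 and 4423 in C24 (log2 change -0.55, SE 0.05, adjusted p = 3.5e-07), and PORB, the light-dependent protochlorophyllide reductase, at 4537, 5064, 4354 and 5282 in yda and 7238, 7003 and 6915 in C24 (log2 change -0.55, SE 0.07, adjusted p = 6.6e-06). Both were lower in every yda array. CHLI2, a magnesium chelatase subunit, changed by -0.47 (SE 0.07) against C24, with almost no difference from Ler. HEMA2, a glutamyl-tRNA reductase that starts the pathway, rose, with a log2 change of 0.53 (SE 0.11).

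Genes known to rise when plants lack oxygen made up one of the largest changes by size. Low oxygen shifts plant cells from respiration to fermentation and induces a set of genes in most tissues. Of 20 tested members of this list, 14 rose and 1 fell, beside 18.6% higher and 23.5% lower over all genes. The median change was 1.4, a fold of 2.65, and 13 members reached a fold of at least 2. Over all genes, 2.58% rose and 3.42% fell by at least that fold. Without C24 replicate 1, 15 rose, 1 fell and the median was 1.32. Members with low signal in C24, such as AT5G10040 and AT4G33560, may have passed the filter only through arrays where they were high.

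AT3G10040, listed by RefSeq as HRA1 or hypoxia response attenuator 1, was at 1679.5, 1274, 1728 and 995 in yda replicates 1 to 4 and 73.2, 92 and 228 in C24 replicates 1 to 3 (log2 change 3.4, SE 0.30, adjusted p = 1.9e-07). AT5G10040 was at 773, 382, 780.3 and 354 in yda and 23.8, 5.2 and 17 in C24 (log2 change 4.18, SE 0.30, adjusted p = 2.3e-08). AT4G10270 was at 2646, 2345, 2640.0 and 2557 in yda and 242.1, 179 and 334 in C24 (log2 change 3.3, SE 0.16, adjusted p = 2e-10). For all of these the lowest yda array was more than 4-fold above the highest C24 array. AT4G33560, at 997, 564, 1090.5 and 584 in yda and 20.6, 25.2 and 50.2 in C24, changed by 4.09 (SE 0.24). AT1G33055 and AT3G27220 changed by 3.19 (SE 0.23) and 2.81 (SE 0.17). The member that fell was AT3G10020, at 584, 629, 696 and 399 in yda and 1435, 1569.8 and 1410.4 in C24 (log2 change -1.35, SE 0.16, adjusted p = 4e-06). It was below every C24 array in each yda array, so the list did not move as 1 block.

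Within the yda group these genes followed a common pattern. In 19 of the 20 genes both yda replicates 1 and 3 lay above both replicates 2 and 4, and the reverse held for 0. Over all genes tested these shares were 21.3% and 25%. The median log2 level of the list was 10.24, 9.74, 10.27 and 9.77 in yda and 8.07, 8.15 and 8.14 in C24. Replicates 1 and 3 were alike and above 2 and 4, and all 4 lay above the C24 arrays. With only yda replicates 2 and 4 kept, the median change was 0.985, and with only 1 and 3 kept it was 1.48.

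Genes of jasmonate, the wound and defence hormone, rose too. The list has 41 loci. Of 10 members with a probe set of 1 gene, 6 passed the filter. All 6 were higher, beside 18.6% of all genes, with a median 2.14, or 5 higher, 0 lower and median 2.18 without C24 replicate 1. Members with low signal in C24 may have passed only through arrays where they were high, so this count partly follows from the filter. PDF1.2b, a defensin marker of jasmonate and ethylene response, read by a probe set of the shared-sequence type, was at 1359, 1045, 2102 and 1161 in yda and 46.5, 67.4 and 68.1 in C24 (log2 change 4.18, SE 0.21, adjusted p = 3.5e-10). AT2G38240 was at 809.6, 567, 853 and 672 in yda and 15.5, 52.1 and 73.2 in C24 (log2 change 3.67, SE 0.26, adjusted p = 2e-08). JRG21, named as a jasmonate-regulated gene, was at 359, 303, 238 and 238 in yda and 79.2, 52.3 and 50.4 in C24 (log2 change 1.97, SE 0.19, adjusted p = 7.1e-07). The groups were far apart in each. AT5G05600 changed by 1.47 (SE 0.08). OPCL1, which activates a jasmonate precursor, was at 2374, 2144, 2438 and 2271 in yda and 1729, 1439 and 2379.6 in C24, with C24 replicate 3 inside the range of the yda arrays, and its call (log2 change 0.35, SE 0.13, adjusted p = 0.036) was lost without C24 replicate 1 (adjusted p = 0.095). As in the hypoxia list, yda replicates 1 and 3 were above 2 and 4 for 5 of these 6 genes as well.

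**Figure D4:**
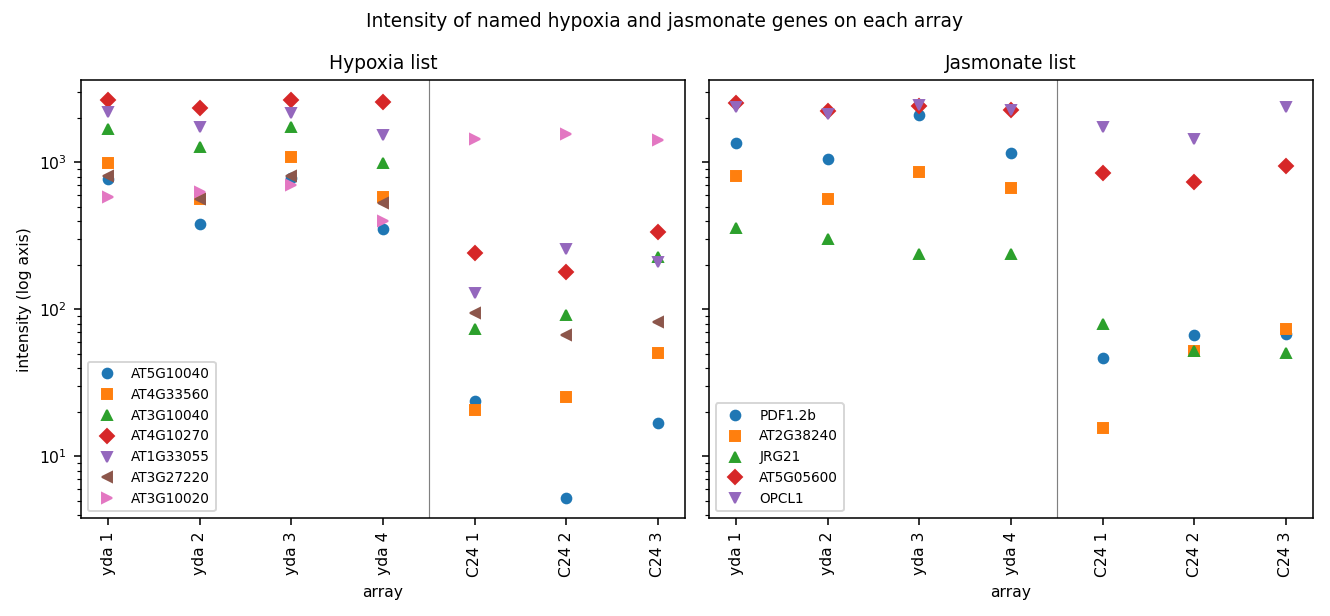
Intensity (log axis) of named genes of the hypoxia list (left) and jasmonate list (right) on each of the 4 yda and 3 C24 arrays. All but AT3G10020, which is lower in yda, and OPCL1, which overlaps between groups, lie above every C24 array in every yda array, and most hypoxia genes are higher in yda replicates 1 and 3 than in 2 and 4.

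WRKY factors, plant transcription factors with many roles in defence, had 4 of 6 higher and 1 lower (median 1.16, or 4 higher, 0 lower and median 1.14 without C24 replicate 1). Over all genes 18.6% were higher and 23.5% lower. WRKY6, a factor of senescence and defence, was at 1600.3, 1209, 1273 and 1162 in yda and 317, 387 and 281 in C24 (log2 change 1.95, SE 0.13, adjusted p = 1.2e-08). WRKY53, WRKY22 and WRKY47 rose, with a log2 change of 1.56 (SE 0.14), 1.3 (SE 0.15) and 1.01 (SE 0.10). The yda arrays lay above the C24 arrays for each of the 4. ZAP1 changed by -0.36 (SE 0.11), and not past the threshold without C24 replicate 1 (adjusted p = 0.053). Of 8 tested calmodulin-like and calcium kinase genes, 4 were higher and 1, at -0.99, was lower. Their median was 0.41, or 4 higher, 1 lower and median 0.43 without C24 replicate 1. CML41, a calmodulin-like calcium sensor with the largest rise of that list, was at 1252, 1075, 1359.8 and 1096 in yda and 198, 196 and 248 in C24 (log2 change 2.4, SE 0.13, adjusted p = 9.7e-10), with all yda arrays above the control.

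Of the tested genes that plants induce in prolonged darkness or sugar shortage, most were lower. Only 6 of the 30 loci in this list were tested. Of these, 4 fell and 1 rose, with a median -0.71, or 1 higher, 4 lower and median -0.55 without C24 replicate 1. The share lower, 66.7%, stands beside 23.5% of all genes. AT3G15450 was at 2620.3, 3565, 2721 and 3589 in yda and 6086, 6961 and 6837 in C24 (log2 change -1.09, SE 0.10, adjusted p = 2.7e-07). AKINBETA1, a subunit of the SnRK1 energy-sensing kinase, was at 572, 726, 612 and 721 in yda and 1474, 1298 and 1282 in C24 (log2 change -1.03, SE 0.08, adjusted p = 8e-08). Every yda array lay below every C24 array for both. BZIP53, a transcription factor of low-energy responses, changed by -0.43 (SE 0.08), and by 0.19 against Ler. GAT1_2.1, a glutamine amidotransferase gene, went the other way, at 335, 374, 380.3 and 345 in yda and 97.3, 135 and 184 in C24 (log2 change 1.31, SE 0.16, adjusted p = 6.1e-06). It was lowest in C24 replicate 1, and its change was 1.11 without that array.

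Autophagy genes, whose products recycle cell contents, had 6 of 11 lower and 1 higher (median -0.21, or 1 higher, 4 lower and median -0.20 without C24 replicate 1). Over all genes 23.5% were lower, or 21.9% without that array. ATG3, which attaches ATG8 to membrane lipid, was at 626, 567, 572 and 655 in yda and 873, 809 and 787 in C24 (log2 change -0.44, SE 0.07, adjusted p = 0.00018). Of the ATG8 genes, APG8H fell, with a log2 change of -0.28 (SE 0.07) and ATG8B rose, with a log2 change of 0.26 (SE 0.08), so the family did not move together.

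Abscisic acid, cold and dehydration genes were lower in 4 of 5 cases and higher in 0 (0 at an unadjusted p under 0.05), with a median -0.60, or 0 higher, 4 lower and median -0.59 without C24 replicate 1. COR47, a dehydrin, was at 3781, 4040.4, 3804 and 4372 in yda and 6140.3, 5681 and 6329 in C24 (log2 change -0.60, SE 0.06, adjusted p = 1.4e-06). LEA4-5, a late embryogenesis abundant protein, was at 67.8, 62.9, 75.5 and 62.3 in yda and 188, 207 and 144 in C24 (log2 change -1.22, SE 0.16, adjusted p = 1.4e-05). LTI30, another dehydrin, changed by -0.50 (SE 0.08) (0.08 against Ler), and COR15B, a cold-induced plastid protein, by -0.64 (SE 0.17). All 4 kept their calls without C24 replicate 1. In the Aux/IAA and GH3 list, early auxin response genes, 4 of 6 fell and 1 rose (median -0.48, or 1 higher, 4 lower and median -0.47 without C24 replicate 1). The shares lower of the abscisic acid and auxin lists, 80.0% and 66.7%, stand beside 23.5% of all genes. GH3.3, an enzyme that joins auxin to amino acids, rose, at 1287, 1100.4, 1176 and 1220.5 in yda and 294, 379.5 and 372 in C24 (log2 change 1.74, SE 0.11, adjusted p = 3.5e-09). GH3.17 and WES1, of the same enzyme family, fell, with a log2 change of -0.94 (SE 0.13) and -0.57 (SE 0.07), and IAA29, a repressor of auxin response, by -0.98 (SE 0.16). Members of 1 enzyme family thus moved in opposite directions, with no overlap between groups for GH3.3, GH3.17 or WES1.

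Cell wall families held both rises and falls, some of them large. Over all genes 18.6% were called higher and 23.5% lower, so both occur in lists of any kind. The shares higher of expansins (18.8%) and pectin enzymes (21.7%) were near that of all genes, while their shares lower were 37.5% and 39.1%. Expansins, proteins that loosen the wall, had 3 of 16 higher and 6 lower (median 0.11, or 3 higher, 7 lower and median 0.08 without C24 replicate 1). EXPA8 was at 203, 301, 242.4 and 272 in yda and 1146, 1628 and 1186 in C24 (log2 change -2.3, SE 0.13, adjusted p = 1.2e-09), and EXPA16 at 204, 248, 284 and 269 in yda and 60.8, 81 and 32.1 in C24 (log2 change 1.9, SE 0.21, adjusted p = 2.9e-06). The groups were far apart in both, in opposite directions. The beta-expansins EXPB3 and EXPB1 fell, with a log2 change of -1.43 (SE 0.13) and -1.06 (SE 0.13). Xyloglucan endotransglucosylases, which cut and rejoin a wall polysaccharide, had 4 of 8 higher and 1 lower (median 0.48, or 5 higher, 1 lower and median 0.50 without C24 replicate 1). XTH18 was at 5568, 5356, 5218 and 6496 in yda and 2144, 1360.4 and 2929 in C24 (log2 change 1.46, SE 0.20, adjusted p = 2.2e-05), and XTH19, XTH32 and XTH16 rose, with a log2 change of 1.12 (SE 0.10), 0.72 (SE 0.11) and 0.58 (SE 0.10). XTH21, at 51.7, 36, 33.7 and 36.5 in yda and 95.1, 85.1 and 77.6 in C24, fell, with a log2 change of -0.89 (SE 0.23).

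Pectin enzymes had 5 of 23 higher and 9 lower (median -0.05, or 4 higher, 8 lower and median -0.12 without C24 replicate 1). ATPMEPCRB, a pectin methylesterase, was at 4355, 4065, 4036 and 3865 in yda and 1005, 768 and 1130.4 in C24 (log2 change 2.07, SE 0.10, adjusted p = 3.7e-10), and PMEPCRF, another, rose, with a log2 change of 1.22 (SE 0.08). The pectin list members AT5G48900 and AT3G07010 fell, with changes of -1.41 (SE 0.10) and -1.09 (SE 0.08). The trichome birefringence-like family, some of whose members acetylate wall polysaccharides, had 7 of 17 lower and 2 higher (median -0.21, or 2 higher, 7 lower and median -0.13 without C24 replicate 1). TBL36 was at 261, 283, 244 and 326 in yda and 714, 656 and 634 in C24 (log2 change -1.22, SE 0.09, adjusted p = 4.1e-08), TBL45 fell, with a log2 change of -0.88 (SE 0.13) and TBL37 rose, with a log2 change of 0.78 (SE 0.11). Class III peroxidases, secreted enzymes of wall cross-linking and oxidative defence, had 14 of 45 higher and 17 lower (median -0.05, or 11 higher, 15 lower and median -0.10 without C24 replicate 1). AT5G39580 was at 3694, 2891, 3365 and 3293 in yda and 372, 378 and 548 in C24 (log2 change 2.91, SE 0.12, adjusted p = 5.9e-11), and AT5G64120 and AT5G58390 rose, with a log2 change of 1.94 (SE 0.08) and 1.46 (SE 0.09). AT3G01190, at 852, 760.3, 789 and 701 in yda and 1751, 2402 and 2294 in C24, had the largest called fall of that family, -1.44 (SE 0.11).

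**Figure D5:**
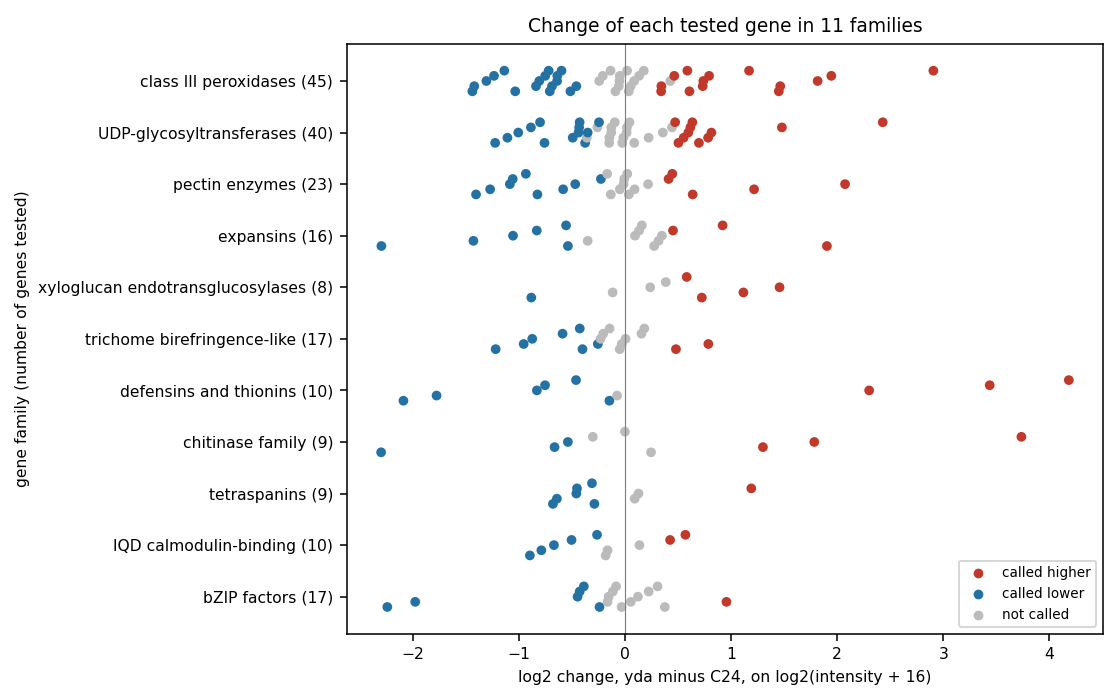
Log2 change (yda minus C24) of each tested gene in 11 families, with called rises in red, called falls in blue and genes not called in grey. Most families hold genes on both sides of 0, as in the expansins, which run from -2.30 for EXPA8 to 1.90 for EXPA16.

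Defence peptides and enzymes also held both rises and falls, beside 18.6% higher and 23.5% lower over all genes. Defensins and thionins, small antimicrobial peptides, had 3 of 10 higher and 6 lower (median -0.31, or 3 higher, 6 lower and median -0.36 without C24 replicate 1). The median against Ler was 1.1. Among the rises was PDF1.2b, already counted in the jasmonate list. PDF1.4 was at 1093, 1080.0, 1107 and 1050.0 in yda and 57.8, 110.3 and 95.6 in C24 (log2 change 3.44, SE 0.13, adjusted p = 2.8e-11). The thionin gene AT1G66100 was at 1799, 1693, 1674 and 2007 in yda and 8354, 7660.0 and 7063 in C24 (log2 change -2.09, SE 0.10, adjusted p = 1.6e-10), and LCR68 fell, with a log2 change of -0.83 (SE 0.08). The chitinase family had 3 higher and 3 lower of 9 (median -0.0023, or the same counts and median -0.12 without C24 replicate 1). AT2G43620 was at 2116, 2002, 2064 and 1918 in yda and 58.8, 160.3 and 255 in C24, with a change of 3.74 (SE 0.29), while AT2G43590, of the same family, was at 589, 455, 544 and 372 in yda and 2042, 2559 and 2796 in C24, with a change of -2.3 (SE 0.13). Both AT1G66100 and AT2G43590 were lower in Ler than in C24 and higher in yda than in Ler, by 5.22 and 1.24 on the log2 scale. UDP-glycosyltransferases, which attach sugars to hormones and other small molecules, had 11 of 40 higher and 13 lower (median -0.06, or 11 higher, 10 lower and median -0.06 without C24 replicate 1). UGT71B6, an abscisic acid glucosyltransferase, was at 122, 93.3, 105 and 67 in yda and 1.3, 3.8 and 9.5 in C24 (log2 change 2.43, SE 0.23, adjusted p = 4.9e-07), from low signal in C24. UGT71C1 and UGT72E3 fell, with a log2 change of -0.89 (SE 0.12) and -1.23 (SE 0.34).

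More tetraspanins and IQD proteins fell than rose, and over all genes too more were lower (23.5%) than higher (18.6%). With all arrays at a common median, 6 tetraspanins were lower and 1 higher, and 4 IQD proteins were lower and 2 higher. Over all genes that scaling gave 19.3% lower and 22.7% higher. Tetraspanins, membrane scaffold proteins, had 6 of 9 lower and 1 higher (median -0.31, or 1 higher, 5 lower and median -0.26 without C24 replicate 1). TET6 fell, with a log2 change of -0.68 (SE 0.12), while TET9 was at 380.4, 469, 439 and 430.2 in yda and 154, 139 and 265 in C24 and rose, with a log2 change of 1.19 (SE 0.19). IQD proteins, which bind calmodulin and microtubules, had 5 of 10 lower and 2 higher (median -0.22, or 2 higher, 5 lower and median -0.30 without C24 replicate 1). IQD24 was at 175, 188, 164 and 163 in yda and 369, 343 and 297 in C24 (log2 change -0.90, SE 0.09, adjusted p = 1.2e-06), IQD19 fell, with a log2 change of -0.79 (SE 0.10) and iqd21 rose, with a log2 change of 0.57 (SE 0.10). Of bZIP transcription factors, 6 of 17 fell and 1 rose (median -0.12, or 1 higher, 4 lower and median -0.14 without C24 replicate 1). The share lower without that array, 4 of 17, was close to the 21.9% of all genes, and the median against Ler was 0.0772. BZIP61 was at 141, 230.1, 155 and 179.9 in yda and 694, 782 and 725 in C24 (log2 change -1.98, SE 0.12, adjusted p = 4.8e-09), and BZIP34 at 36.4, 44.4, 25.2 and 30.5 in yda and 343, 251 and 119 in C24 (log2 change -2.24, SE 0.23, adjusted p = 1.4e-06). The factor that rose was BZIP60, which switches on genes of protein folding in the endoplasmic reticulum, at 2692, 2726, 2421 and 2684 in yda and 1401, 1161 and 1505 in C24 (log2 change 0.96, SE 0.08, adjusted p = 1.2e-07). Of 15 SWEET sugar transporters 0 rose and 2 fell (median 0.04, or 0 higher, 3 lower and median -0.08 without C24 replicate 1), a smaller share lower than the 23.5% of all genes, and at an unadjusted p under 0.05 2 were higher. SWEET16, of the vacuole membrane, was at 254, 216, 233 and 247 in yda and 642, 583 and 839 in C24 and fell, with a log2 change of -1.46 (SE 0.12). SWEET11, which exports sucrose for phloem loading, was at 2179.9, 2108, 2055 and 2400.0 in yda and 3629.8, 3379 and 3810.1 in C24 and fell, with a log2 change of -0.72 (SE 0.07).

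Genes of the stomatal lineage and of guard cells were few on the named probe sets. SPCH, the factor that starts the lineage, was at 90.5, 75, 89.7 and 125 in yda and 15.5, 23.6 and 41 in C24 (log2 change 1.4, SE 0.24, adjusted p = 0.0002, or 1.21 without C24 replicate 1). FMA, the factor of guard cell fate, was at 305, 293, 364 and 364 in yda and 133, 204 and 223 in C24 (log2 change 0.80, SE 0.15, adjusted p = 0.00038, or 0.59). STOMAGEN, a secreted peptide that promotes stomata, was at 333, 448, 395 and 412 in yda and 1316, 880.0 and 707 in C24 (log2 change -1.21, SE 0.15, adjusted p = 7.8e-06, or -0.97). Against Ler, SPCH changed by -0.32. Its signal was low, below the array's 30th percentile in every C24 array (76.2, 85.75 and 81.5) and in yda replicate 2 (82.9). SPCH may have passed the filter only through arrays where it was high. C24 replicate 1 was farthest from the yda arrays in all 3, and the groups still did not overlap without it. ATBRXL2, a polarity protein, was at 99.4, 53.8, 82.3 and 78.7 in yda and 105, 97.7 and 94.2 in C24 and was not called (log2 change -0.31, SE 0.17, adjusted p = 0.17). Of 5 guard cell genes 4 rose and 1 fell, with a median 1.3, or 4 higher, 1 lower and median 1.05 without C24 replicate 1. AT2G16630 was at 1490.3, 1412, 1372 and 1203 in yda and 272, 506 and 569 in C24, AT4G14480 at 316, 418, 376 and 316 in yda and 126, 199.8 and 199.7 in C24 and AT1G22690 at 4646, 5092, 4647 and 5085 in yda and 1369, 2013 and 2723 in C24. CHX20, at 74.2, 82.4, 46.6 and 80.3 in yda and 4.3, 11.5 and 10 in C24, rose from low signal and differed from Ler by -0.79 on the log2 scale, and AT5G06970 fell, with a log2 change of -0.26 (SE 0.07). C24 replicate 1 was the lowest array for the 4 that rose.

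Markers of other cell types were sparsely covered, so the makeup of the seedlings could be checked only in part. The root markers PYK10, EXPA7 and EXPA18 were not called (0 of 3, also 0 at an unadjusted p under 0.05, by limma), with PYK10 at 10251, 11932, 10039.8 and 12641 in yda and 10841, 11729 and 11540.2 in C24. EXPA7 and EXPA18 were also counted in the expansin list. CR4, an epidermal receptor kinase, was at 51.4, 48.9, 15.6 and 62.5 in yda and 112, 95.9 and 78.2 in C24 and fell, with a log2 change of -0.95 (SE 0.25). LAS, a gene of axillary meristems, was not called at 149, 140.2, 135 and 114 in yda and 104, 190.2 and 150.0 in C24. SWEET11, above, was the tested vascular marker. Of the seed maturation genes, AT3G01570 was at 173, 163, 188 and 171 in yda and 674, 495 and 298 in C24 and fell, with a log2 change of -1.34 (SE 0.19), and OLEO3 was not called at 105, 108, 89.7 and 108 in yda and 96.4, 110.3 and 67 in C24. GI, a clock gene, was at 369, 361, 295 and 352 in yda and 477, 520.2 and 556 in C24 and fell, with a log2 change of -0.57 (SE 0.09), and the hour of harvest is not given in the sources used here. For the cell cycle, 2 of 6 tested genes fell and 0 rose (0 at an unadjusted p under 0.05), with a median -0.29, or 0 higher, 2 lower and median -0.30 without C24 replicate 1. These were TOPII, which untangles DNA, at -0.65 (SE 0.15) and the mitotic kinase AUR1 at -0.55 (SE 0.07). Of 7 histone genes 2, the linker histones HIS1-3 and HON4, fell, with changes of -1.02 (SE 0.15) and -0.65 (SE 0.09) (median -0.21, or 0 higher, 2 lower and median -0.21 without C24 replicate 1), and 0 rose (0 at an unadjusted p under 0.05). These counts of a few genes, 33.3% and 28.6% lower, stand beside 23.5% of all genes.

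Beyond the lists described above, other genes also changed by large amounts. AT4G12500 and AT4G12490 were the 2 tested members of a list of EARLI1-type lipid transfer-like genes. AT4G12500 rose most, at 2995, 2454, 3127 and 2034 in yda and 44.4, 66.2 and 96.6 in C24 (log2 change 5.0, SE 0.18, adjusted p = 1.6e-11), and further large rises were those of AT4G12490 (3.96), AT3G16670 (3.74), AT1G10340 (3.39) and AT2G43140 (3.3). AT1G52820 fell most, at 45.6, 31.7, 59.2 and 53.4 in yda and 582, 577 and 291 in C24 (log2 change -2.93, SE 0.20, adjusted p = 1.2e-08). Further large falls were those of AT2G33850 (-2.71), AT3G45710 (-2.62), AT1G67870 (-2.58), AT4G01390 (-2.38) and AT2G20670 (-2.3). JKD, a zinc finger factor of root tissue patterning, was at 16.9, 15.6, 49.3 and 14.8 in yda and 145, 192 and 171 in C24 (log2 change -2.28, SE 0.21, adjusted p = 4.2e-07). ATOEP16-2, a protein of the outer plastid envelope, changed by -2.25 (SE 0.32) and AT3G19620 by -2.26 (SE 0.18). All of these kept their direction and call without C24 replicate 1, with ATOEP16-2 the most reduced, to -1.83.

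Genes near YDA on chromosome 1 were also counted. Of the 50 tested genes on each side of AT1G63700 by locus number, 50 of 100 were called (50%), against 42.8% of chromosome 1 and 42.1% of all genes. At a fold of at least 2 the shares were 7.0%, 5.72% and 6.0%. With 25 genes on each side the share called was 40%, and with 100 it was 48.5%.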

How the data were processed

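RNA of whole seedlings was measured on 1-colour ATH1 arrays. The deposited values were probe set intensities on a linear scale, globally scaled to a common mean by the authors; the software is not given in the sources used here. Of 22810 probe sets, 64 controls were left out. The probe table named 1 gene for 13513 probe sets, several for 503 and none for 8730, and 13436 matched RefSeq TAIR10.1 locus tags.

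Values were taken as log2(intensity + 16). Probe sets brighter than the 30th percentile of an array, on 3 or more of the 14, were tested (17210), with limma 3.58.1 in R 4.3.3 (lmFit, eBayes with trend, group means over all 14 arrays, Benjamini-Hochberg adjustment, call at an adjusted p under 0.05). Genes were read by their brightest probe set (9421 genes). A gene with low signal in yda or in C24 may have passed the filter only through the groups where it was high. The list counts share this limit. The members and lists were chosen with earlier results of these data known, and some lists were collected by gene names after the data were seen. Genes were named by rule: the 12 largest rises and falls without overlap between groups at a fold of at least 2, the 4 called genes with the smallest p and the extremes of the lists described, and every tested stomatal, guard cell and cell type marker. The lists were taken from background knowledge of names and loci, and miss members without a probe set of 1 gene. Some lists were thinly covered, with 6 of 41 loci tested for jasmonate, 5 of 38 for abscisic acid and 6 of 30 for starvation. For light harvesting it was 8 of 48, for the proteasome 9 of 52 and for the Calvin cycle 7 of 31. Such counts describe the tested genes, not the whole function. Replicate numbers were not treated as pairs, as the labels do not say that they mark any. On simulated data for yda against C24 (17210 probe sets, 200 changed), 87% of 2-fold and 62% of 1.5-fold changes were recovered, and 5.70% of calls were false. This setting is unlike the data, in which 7470 probe sets were called. Its noise was also independent between probe sets, so these rates need not hold for the data. Alternatives were other scalings, pseudocounts, filters, array weights, a replicate block, the Ler control and left-out arrays.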

Additional observations from a re-analysis of the deposited data

Results flagged for a closer look

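Of 183 values checked over the 4 yda arrays, 5 had an array that lay far from the other yda arrays, where chance gives about 1 in 20. The measure is the gap to the nearest array as a share of the whole range, judged by Dixon's 95% critical value for 4 samples. C24, with 3 arrays, was not checked. The median level of the plastid-encoded genes had a share of 0.847, with yda replicate 4 low. That of UDP-glycosyltransferases had 0.949, with yda replicate 4 high. BZIP60 had 0.86, with yda replicate 3 low, XTH21 had 0.844, with yda replicate 1 high, and JKD had 0.939, with yda replicate 3 high.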

How the results depend on the processing

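Over all probe sets tested, the count called at an adjusted p under 0.05 (7470) stayed within 1.5 times under every alternative, from 5978 to 10271, and from 6684 to 7285 with 1 array, or C24 replicate 1 and yda replicate 4, left out. At a fold of at least 2 the count of 1109 was 720 at a pseudocount of 64 and 2584 against Ler. Against Ler instead of C24, the medians that moved beyond the spread between arrays were 0.267 for ribosome biogenesis, 0.0767 for RNA polymerase subunits, -0.00136 for proteasome subunits, -0.0669 for light harvesting and photosystems, -0.17 for Calvin cycle and photorespiration, 2.74 for jasmonate synthesis and response, -0.228 for abscisic acid genes, -1.03 for starvation genes, -0.535 for autophagy, 0.677 for xyloglucan endotransglucosylases, 1.1 for defensins and thionins, 1.03 for chitinase family, -0.551 for IQD calmodulin-binding, 0.0772 for bZIP factors, -0.439 for cell cycle, -0.671 for histones and 0.713 for guard cell genes. With all arrays brought to a common median, they were 0.4 for small-subunit ribosomal proteins, 0.467 for ribosome biogenesis, 0.361 for mitochondrial respiration and ATP synthase and -0.16 for IQD calmodulin-binding. With the filter at the 50th percentile, they were 0.277 for RNA polymerase subunits, -0.569 for Aux/IAA and GH3, -0.447 for expansins, -0.35 for pectin enzymes and -0.154 for chitinase family. At a pseudocount of 64, they were 1.47 for jasmonate synthesis and response and 0.886 for guard cell genes. At a pseudocount of 1, the one that moved was 2.58 for jasmonate synthesis and response. Leaving out yda replicates 1 and 3 moved medians to -0.0933 for light harvesting and photosystems, 0.985 for hypoxia response, 1.63 for jasmonate synthesis and response, 0.939 for WRKY factors, -0.568 for starvation genes, -0.095 for trichome birefringence-like and -0.422 for cell cycle. Leaving out yda replicates 2 and 4 moved them to -0.293 for light harvesting and photosystems, -0.61 for Aux/IAA and GH3 and -0.316 for trichome birefringence-like. With 1 array, or C24 replicate 1 and yda replicate 4, left out, medians that moved ran from -0.776 to -0.546 for starvation genes, -0.607 to -0.471 for Aux/IAA and GH3, -0.262 to -0.122 for trichome birefringence-like, -0.143 to 0.113 for chitinase family, -0.343 to -0.218 for IQD calmodulin-binding, -0.416 to -0.221 for cell cycle and 0.929 to 1.54 for guard cell genes. Against Ler, the named genes that changed sign were NRPB9B at -0.128, NRPB6B at -0.366, CHLI2 at 9.8e-05, BZIP53 at 0.194, LTI30 at 0.0779, XTH16 at -0.356, AT1G66100 at 5.22, AT2G43590 at 1.24, iqd21 at -0.0025, SPCH at -0.324, CHX20 at -0.787.

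The labels do not say that replicate numbers mark pairs. In their deviations from the group means, same-numbered yda and C24 arrays correlated at -0.156, 0.0837 and 0.0845, and yda replicate 4 with C24 replicate 1 at 0.322. These values cannot show whether the samples were paired. A fit with the replicate number as a block called 7171 probe sets, 3158 higher and 4013 lower, with 1120 at a fold of at least 2. Over all alternatives, 644 of 693 list medians moved by less than the spread between arrays. This total includes settings that cannot change a difference of group means, namely no filter, no intensity trend and the arrays of yda and C24 alone. In each of these all 33 medians were the same. Lists with a wide spread also count as unmoved, such as the plastid-encoded genes, whose median ran from -0.549 to -0.0149 with arrays left out. For the named genes, 3014 of 3123 comparisons kept direction and side of the threshold, 94 were weaker, 4 stronger and 11 reversed. Without C24 replicate 1, 4 of 150 named genes lost their call. The settings that left out a pair of arrays were chosen after seeing the data. Motifs in promoters were not run. The cause of these changes was not tested. Array number limits the precision, and genes near background have little measured signal.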

Other observations

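Over all genes tested, 21.3% had both yda replicates 1 and 3 above both 2 and 4, and 25% the reverse. The mitochondrial list had 15 of 40 genes the first way and 1 the reverse. Other lists ran the other way, with replicates 2 and 4 above 1 and 3 for 7 of 8 light harvesting genes, 7 of 9 nuclear genes of plastid ribosomal proteins and 5 of 7 Calvin cycle genes. The labels give nothing that sets these arrays apart, and the cause was not tested.

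Flavonoid and glucosinolate genes gave 0 calls of 4 tested in each list by limma, and 0 at an unadjusted p under 0.05. The lists of salicylate immunity and of folding in the endoplasmic reticulum, of 4 tested genes each, share WRKY53, WRKY22 and BZIP60 with lists already described. Their other members, named here after their values were seen, were BIK1 at 0.74, SAG101 at 1.58, CRT1b at 0.44 and ATERDJ3B at 0.43, all called higher, and BZIP28 at -0.03, not called.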
